A study of Homo sapiens with 9 samples.

Results

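DEAD and DEAH box helicases are the largest group of RNA helicases in human cells, and the genes described here are the protein coding genes whose symbol is DDX or DHX followed by digits and at most 1 letter. The rule found 54 genes, 38 DDX and 16 DHX, among the 51105 genes that were listed for both RNA immunoprecipitations (RIPs) of the study. Of these 54, 47 (32 DDX and 15 DHX) had a mean normalised read count above 50 for both RIPs, and 7 did not: DDX3Y, DDX4, DDX25, DDX43, DDX53, DDX60L and DHX58. Where no gene number is given below, a count or a median is over the 47 genes above that minimum, which was set on the mean of input and RIP together.

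The helicases of both families use ATP to pull RNA strands apart or to strip proteins from RNA. DEAD box proteins act locally, opening short duplexes or clamping onto RNA, and DEAH box proteins mostly move along a strand and are best known for remodelling the spliceosome. Their names come from motif II of the helicase core, 4 residues that bind magnesium and ATP, which are Asp-Glu-Ala-Asp in the founding DEAD box proteins and Asp-Glu-Ala-His in DEAH box proteins. Almost every step in the life of an mRNA and the assembly of ribosomes depend on members of these families, and their own mRNAs carry poly(A) tails like other mRNAs. Poly(A) tails are coated by PABPN, the nuclear binding protein, as they are made, and by PABPC once the mRNA is in the cytoplasm.

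The study asked which transcripts are found with PABPN and which with PABPC. Cells of the wildtype human line HEK293T, which was derived from embryonic kidney, were crosslinked with 0.1% formaldehyde, and each lysate was divided between an anti-PABPN and an anti-PABPC immunoprecipitation, so the 3 groups were input RNA with no immunoprecipitation, PABPN RIP and PABPC RIP, with 3 biological replicates each. All 9 libraries came from crosslinked, otherwise untreated cells, and libraries were made from total RNA after ribosomal RNA was depleted. Reads in exons and introns were counted together for each gene, so every value below is for spliced and unspliced transcripts at once.

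To show what the shared motif looks like in the genes to which the results return most often, 30 bases of coding sequence around motif II are printed for 10 of them, 5′ to 3′ on the coding strand as read from hg38, with the 12 bases of the motif in capitals.

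DDX28: ttggtgttgGATGAGGCAGACacactgctg
DDX47: ttggtcatgGATGAAGCCGACcgaatactg
DHX16: gtgatggtgGATGAGGCACACgaaaggacc
DHX35: atcatgctgGATGAAGCCCACgagaggacc
DDX58: atgatatttGATGAATGCCACaacactagt
DHX40: attattttgGATGAAGCCCATgaaagaact
DDX39A: tttgtgctgGACGAGTGTGACaagatgctg
DDX39B: tttattttgGATGAATGTGATaagatgctt
DDX5: cttgtccttGATGAAGCAGATagaatgctt
DDX17: cttgtattgGACGAAGCTGACagaatgctt

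These stretches lay in the only exon of DDX28 (chr16:68022327-68022356, minus strand), exon 5 of 12 of DDX47 (chr12:12822033-12822062, plus strand), exon 10 of 20 of DHX16 (chr6:30660209-30660238, minus strand), exon 7 of 22 of DHX35 (chr20:38992360-38992389, plus strand) and exon 8 of 18 of DDX58 (chr9:32488023-32488052, minus strand). The stretch of DHX40 lay in exon 4 of 18 (chr17:59573197-59573226, plus strand). Those of DDX39A (chr19:14410999-14411028, minus strand) and DDX39B (chr6:31536510-31536539, minus strand) lay in exon 5 of 11 in both genes, and those of DDX5 (chr17:64503236-64503265, minus strand) and DDX17 (chr22:38494934-38494963, minus strand) in exon 7 of 13 in both. A motif II was found in the canonical transcript of all 54 genes. It read DEAD in 29 genes, all of them DDX, and DEAH in 9, of which 8 were DHX and 1 was DDX11. The other spellings were DEVH in 6 genes, DECD, DECH, DEIH and DEVD in 2 genes each, and DESD (DDX52) and DDIH (DHX32) in 1 gene each, so the symbol and the motif do not always match. The 4 residues of DEAD were written with 11 different sets of 12 bases among the 29 genes.

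The deposited value for each RIP is 1 mean per gene over the 3 input and the 3 RIP libraries. The log2 ratio of the PABPN mean to the PABPC mean, after both were set to the same input scale, is called the pooled ratio here. It is positive where a gene had more normalised reads in PABPN RIP than in PABPC RIP and negative where it had fewer, and because the same input reads are in both means, the true ratio of the 2 RIPs is at least as large. The folds given with "at least" are taken at the end of the scale's tolerance nearest to no difference and rounded down. There is 1 pooled ratio per gene, so it has no replicate error and no test. The factor that sets both means to the same input scale is known to 0.015. That tolerance leaves out the size factors of the RIP libraries, which help to set where 0 lies. For 12 of the 47 genes the whole reads in every library could also be worked out from the digits of both means, and these genes were compared with limma. The libraries are numbered within each group by that calculation, and the numbers are not the replicate numbers of the study. Input library 1, PABPN RIP library 3 and PABPC RIP library 1 stood apart together. Their deviations from their group means correlated at 0.5698 to 0.7332 with each other, over 9160 genes. With the other 6 libraries, compared only between groups, the correlations were -0.618 to -0.4191. These negative values follow in part from the positive ones, since deviations were taken within groups of 3. The values that depend on these 3 libraries are given with and without them. The 3 were picked by these same deviations, so leaving them out or giving them a term tends to narrow the spread by that choice. Adjusted p-values of such fits are smaller in part for that reason than those of the fit of all 9 libraries. Fits without the 3 also hold fewer libraries per group. The 9 libraries held 7234936 to 9521488 reads on those 9160 genes.

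Helicase transcripts were spread on both sides of 0, with the DDX genes wider and lower than the DHX genes. The pooled ratio of the 47 genes had a median of -0.13 and ran from -1.17 in DDX49 to 0.57 in DDX10. It was positive in 19 genes and negative in 28. It was above 0.5 in 2 genes, DDX10 and DDX51, where 16.9% of all protein coding genes and 23.3% of all genes were above 0.5. It was below -0.5 in 12 genes, where 30% of protein coding genes and 26.6% of all genes were. The median of all 12452 protein coding genes was -0.060 and that of all 14581 genes was 0.035. The SD over genes was 0.45 for the helicases and 0.68 for protein coding genes.

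**Figure D1:**
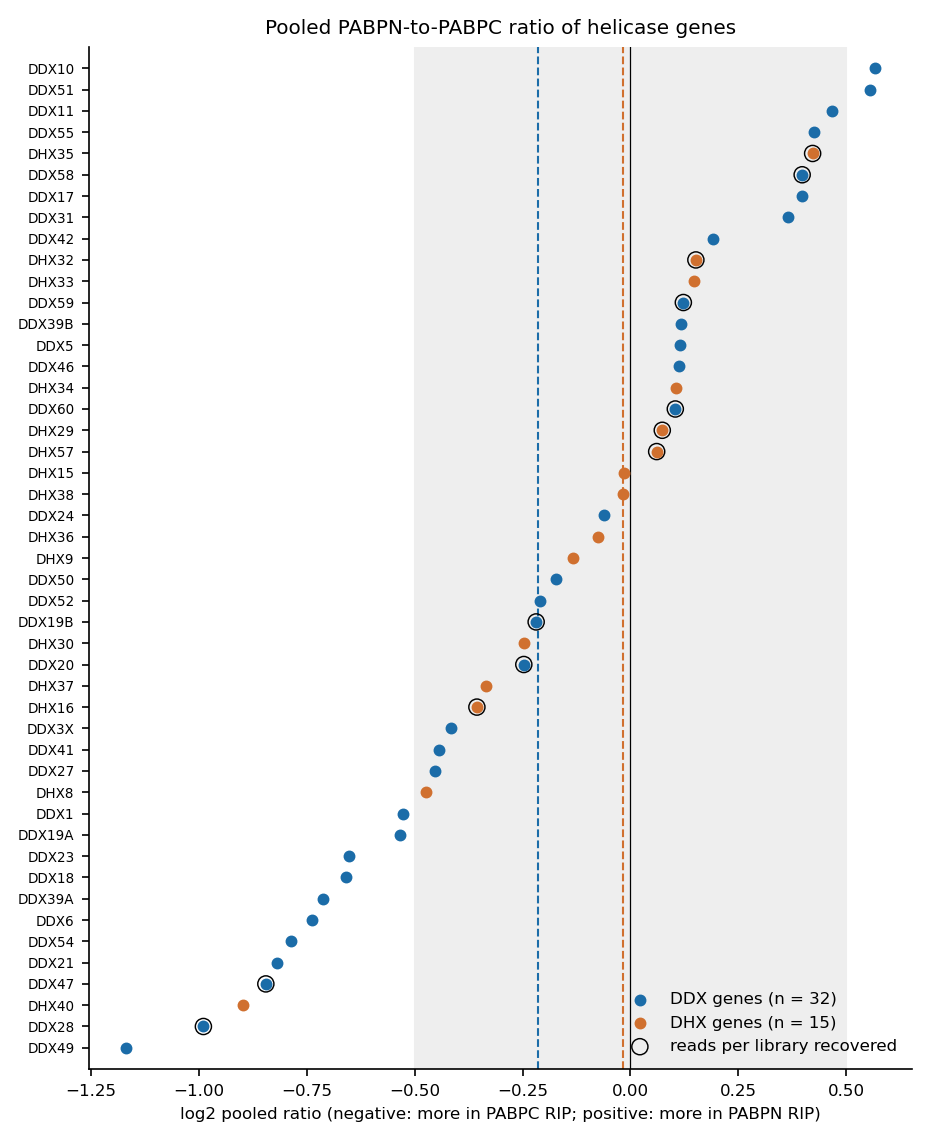
Pooled ratio (log2, x axis) of the 47 helicase genes with a mean normalised read count above 50 for both RIPs, 1 row per gene, DDX in blue and DHX in orange, with dashed lines at the family medians and grey shading from -0.5 to 0.5. DDX10 and DDX51 lie right of the shading and 12 genes left of it, 11 of the 32 DDX and 1 of the 15 DHX genes. Of protein coding genes, 16.9% lie right of it and 30% left. A circle marks the 12 genes whose reads per library were recovered.

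The 32 DDX genes had a median pooled ratio of -0.21 and the 15 DHX genes a median of -0.016, a difference of -0.20. The SD over genes was 0.50 in the DDX and 0.32 in the DHX genes, and the ranges overlapped from -0.90 to 0.42, which is the whole DHX range. Of the 32 DDX genes, 2 were above 0.5 and 11 below -0.5, and of the 15 DHX genes 0 and 1, which was DHX40. Beside these, 16.9% of protein coding genes were above 0.5 and 30% below -0.5. The families also differed in build. DDX genes had a median of 15 exons and 2098.5 bases of coding sequence, DHX genes had 22 exons and 3429 bases, and a protein coding gene had 9 exons and 1449 bases. The median length of all introns of the canonical transcript was 23600 bases in DDX genes and 41906 bases in DHX genes, beside 27420.5 bases in protein coding genes. Read by motif rather than by symbol, the 24 genes with DEAD had a median of -0.33 and the 9 with DEAH a median of -0.016. Genes are not replicates, so these medians were not tested against each other.

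The 8 highest pooled ratios belonged to genes of several roles. DDX10 (0.57), a putative ribosome assembly factor, had at least 1.46-fold more normalised reads in PABPN RIP than in PABPC RIP, and 86.8% of protein coding genes lay below it. DDX51 (0.56), which works on the precursor of the large ribosomal subunit, had at least 1.45-fold more. The third gene was DDX11 (0.47), a DNA helicase of chromosome cohesion, but DDX12P, a near-identical copy on the same chromosome, was listed with a mean of 3087 normalised reads beside 9089 for DDX11, so reads of these genes may have been split and the value is uncertain. DDX55 (0.43), another factor of large subunit assembly, had at least 1.33-fold more, and DHX35 (0.42), a protein found in purified spliceosomes, at least 1.32-fold more. DDX58 (0.40), which encodes the viral RNA sensor RIG-I, and DDX17 (0.40), a coregulator of transcription and splicing, had at least 1.30-fold more, and DDX31 (0.37), a nucleolar protein, at least 1.27-fold.

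The 8 lowest were all negative by more than 0.7. DDX49 (-1.17), a nucleolar factor of ribosome assembly, had at least 2.23-fold more normalised reads in PABPC RIP than in PABPN RIP, and 10.1% of protein coding genes lay below it. DDX28 (-0.99), which helps to assemble the ribosome of mitochondria, had at least 1.97-fold more, and DHX40 (-0.90) at least 1.85-fold more. DDX47 (-0.85), DDX21 (-0.82) and DDX54 (-0.79), all nucleolar proteins, had at least 1.78-fold, 1.75-fold and 1.71-fold more. DDX6 (-0.74), the decapping activator found in P-bodies, had at least 1.65-fold more, and DDX39A (-0.71), an mRNA export helicase, at least 1.62-fold more. DDX1 (-0.53) and DDX19A (-0.53) were just below -0.5 and DHX8 (-0.47) was just above it. On the positive side DDX51 was the last gene above 0.5 and DDX11 the first below it.

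By role, ribosome assembly held both extremes. It was also the longest list. Its 14 genes had a median of -0.27 and spanned the whole helicase range from DDX49 to DDX10. Of them, 2 were above 0.5, beside 16.9% of protein coding genes, and 5 below -0.5, beside 30%. Beside those already named, DDX18 had -0.66, DDX27 -0.45, DHX37 -0.34, DDX52 -0.21, DDX24 -0.061 and DHX33 0.15. DHX37 and DDX52 act on the small ribosomal subunit, and DDX18 and DDX27 on the large. Among factors of the large subunit, DDX51 and DDX55 were thus positive and DDX18, DDX27 and DDX54 negative.

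The 11 splicing genes had a median of -0.016, with none above 0.5 and 2 below -0.5, beside 16.9% and 30% of protein coding genes. The 2 were DDX39A and DDX23 (-0.65), a helicase of the tri-snRNP. The DEAH proteins of known spliceosome steps lay near 0 or below: DHX16 (-0.36) acts before the first step, DHX38 (-0.016) between the steps, DHX8 (-0.47) in the release of the spliced mRNA and DHX15 (-0.016) in the release of the lariat. DDX41 had -0.44. DDX46 (0.11), needed for the early recognition of the branch site, DDX39B (0.12), which acts at the same stage and in export, DDX42 (0.19), a partner of the U2 particle, and DHX35, the highest of the list, were positive.

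The 6 measured genes of mRNA export, translation, decay and storage had a median of -0.32. Of them, 2 were below -0.5, beside 30% of protein coding genes. DDX6 was the lowest, followed by DDX19A, which releases mRNA on the outer side of the nuclear pore, DDX3X (-0.41), a translation factor, DDX19B (-0.22) and DHX36 (-0.075), which unwinds quadruplexes, while DHX29 (0.074), which helps scanning ribosomes through structured leaders, was positive. In the transcription list of 5, with a median of -0.13, DDX1 was below -0.5, and DDX20 (-0.25), a partner of the SMN protein, and DHX9 (-0.13) lay between DDX1 and the positive genes DDX5 (0.11) and DDX17. DDX1 is part of the complex that joins tRNA exons. The mitochondrial pair DDX28 and DHX30 (-0.25) were both negative, and the sensors DDX58 and DDX60 (0.10) were both positive. The 6 genes on no list, DDX50 (-0.17), DDX59 (0.12), DHX32 (0.15), DHX34 (0.11), DHX40 and DHX57 (0.061), had a median of 0.084. DHX34 takes part in nonsense-mediated decay.

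**Figure D2:**
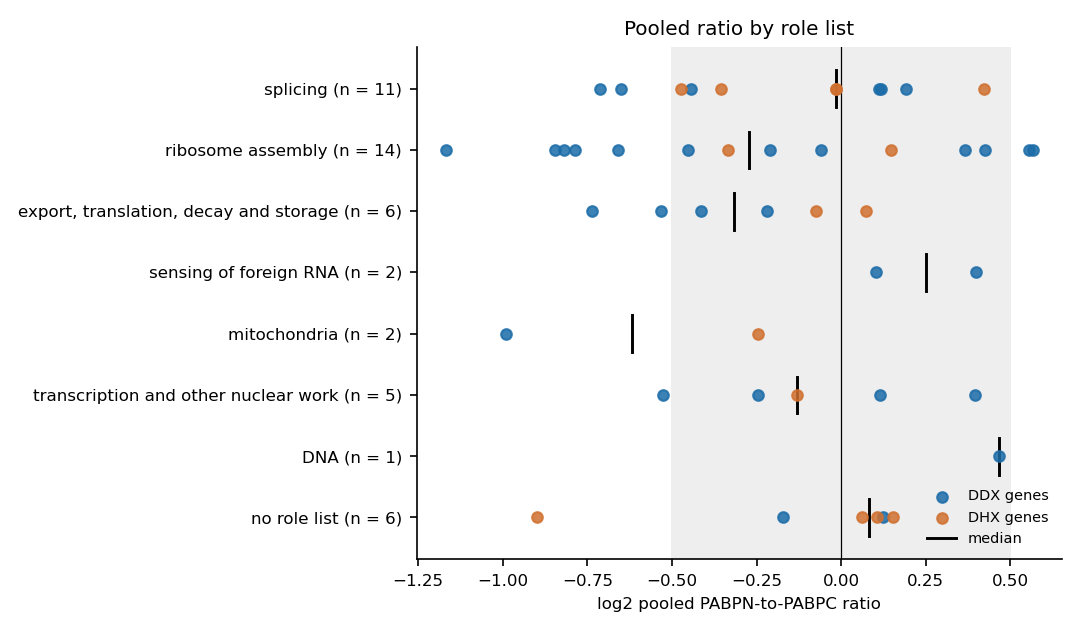
Pooled ratio (log2, x axis) of the 47 genes by role list, 1 point per gene, DDX in blue and DHX in orange, black bars at list medians and grey shading from -0.5 to 0.5. The 14 ribosome assembly genes, the longest list, span -1.17 to 0.57, the full helicase range. No splicing gene lies above 0.5 and 2 of 11 lie below -0.5, beside 16.9% and 30% of protein coding genes.

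Reads per library give the RIPs and the input apart. They were recovered for 7 DDX genes (DDX19B, DDX20, DDX28, DDX47, DDX58, DDX59 and DDX60) and 5 DHX genes (DHX16, DHX29, DHX32, DHX35 and DHX57) among the 47. Recovery works only up to a middle level of reads, and 35 genes, among them most of the 16 extremes above, were not recovered. Values are reads divided by size factor, called normalised reads. Fold changes are differences of log2(normalised reads + 0.5) with 1 standard error (SE), adjusted p-values are Benjamini-Hochberg values over the 9160 genes fitted with limma, and a gene is called where the adjusted p was at most 0.01 and the change beyond 0.5. For 5 of the 12 genes the digits allowed a single set of whole reads. For the other 7 the most likely of several sets was used, which held 99.03% to 99.99% of the weight in the calculation. The weight favoured sets whose spread within groups and whose ratios between groups resembled those of other recovered genes. SDs, SEs, p-values and gaps between groups of these 7 genes therefore rest in part on that assumption. The range over all allowed sets is given with each gene. Over those sets the change against input could take either sign in all 7 genes for PABPN RIP and for PABPC RIP, while the sign between the RIPs was the same in every set for 6 of them.

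Of the 12 genes, limma called 0 higher and 1 lower in PABPN RIP than in input, where 18.6% of the 9160 genes were called higher and 10.2% lower. No gene of the 12 was higher at an unadjusted p under 0.05 either. In PABPC RIP, 2 were higher than in input (DDX28 and DDX47) and 4 lower (DDX58, DDX60, DHX32 and DHX35), where 39.4% of all fitted genes were called higher and 30.5% lower. Between the RIPs, 2 were higher in PABPN RIP (DDX58 and DHX35) and 3 in PABPC RIP (DDX28, DDX47 and DHX16), where 37.5% and 33.7% of fitted genes were called. Of the 5 DHX genes, 1 was called on each side of this last comparison, and of the 7 DDX genes, 1 and 2.

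DDX28, on chromosome 16 at 68020916 to 68023232, had 486, 599 and 632 normalised reads in the 3 input libraries, 463, 403 and 299 in PABPN RIP, and 1208, 1380 and 1420 in PABPC RIP. All PABPC RIP libraries were above all input libraries, and all PABPN RIP libraries below them. The means were 573 ± 76.5 in input, 389 ± 82.9 in PABPN RIP and 1336 ± 113 in PABPC RIP (SD, n = 3). DDX28 was higher in PABPC RIP than in input by 1.23 (SE 0.161, adjusted p = 2.51e-05) and lower in PABPN RIP than in PABPC RIP by -1.80 (SE 0.161, adjusted p = 9.4e-07). Its difference between PABPN RIP and input, -0.57 (SE 0.161), missed the threshold with an adjusted p of 0.0124 by limma, and passed it without the 3 libraries that stood apart (-0.51, adjusted p = 3.4e-05), with a term for them (-0.57, adjusted p = 2.43e-05), with a block of matched libraries inferred from the reads (-0.57, adjusted p = 8.37e-05), without input library 1 (-0.69, adjusted p = 0.00637) or without PABPN RIP library 1 (-0.71, adjusted p = 0.00554). The gene has 1 exon, so no read of it can come from an intron of its own.

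DDX47, at 12813316 to 12829981 of chromosome 12, showed the same order of groups at a higher level. It had 1955, 2622 and 2798 normalised reads in input, 1502, 1498 and 1321 in PABPN RIP, and 3528, 5127 and 4972 in PABPC RIP, and no 2 groups overlapped. In limma it was lower in PABPN RIP than in input (-0.76, SE 0.162, adjusted p = 0.00274), higher in PABPC RIP than in input (0.88, adjusted p = 0.000356) and lower in PABPN RIP than in PABPC RIP (-1.64, adjusted p = 2.18e-06). It was the only gene of the 12 called lower in PABPN RIP, and that call was lost without input library 2 (-0.70, adjusted p = 0.0146), input library 3 (-0.65, adjusted p = 0.0152) or PABPN RIP library 3 (-0.70, adjusted p = 0.0107). The digits allowed 28 sets of reads for DDX47, over which PABPN RIP minus PABPC RIP ran from -3.39 to -0.89, PABPN RIP minus input from -3.42 to 2.81 and PABPC RIP minus input from -0.026 to 3.70, so its sign against input rests on the choice of set.

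DHX16, at 30653119 to 30673006 of chromosome 6, had 2202, 2604 and 2668 normalised reads in input, 2122, 2094 and 1786 in PABPN RIP, and 3052, 3510 and 3204 in PABPC RIP. The 3 groups did not overlap, with PABPN RIP lowest and PABPC RIP highest. The difference between the RIPs was called (-0.70, SE 0.104, adjusted p = 6.28e-05), and those against input were not, at -0.32 (adjusted p = 0.0264) for PABPN RIP and 0.39 (adjusted p = 0.00465, within the bound of 0.5) for PABPC RIP in limma. With each library centred on its median, PABPN RIP against input was called (-0.51, adjusted p = 0.00194). Over the 24 sets of reads allowed, the RIPs differed by -1.20 to -0.39, so the sign was the same in each set, while PABPN RIP differed from input by -1.96 to 1.94 and PABPC RIP by -0.76 to 2.40.

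DHX35, at 38962299 to 39039723 of chromosome 20, was lowest in PABPC RIP. It had 2168, 2607 and 2576 normalised reads in input, 2147, 2156 and 1788 in PABPN RIP, and 865, 861 and 948 in PABPC RIP. The groups did not overlap, with PABPN RIP just below input and PABPC RIP far below both, at a mean of 891 ± 49.3 beside 2450 ± 245 in input and 2030 ± 210 in PABPN RIP (SD, n = 3). It was lower in PABPC RIP than in input by -1.46 (SE 0.105, adjusted p = 1.92e-07) and higher in PABPN RIP than in PABPC RIP by 1.18 (SE 0.105, adjusted p = 9.12e-07). PABPN RIP and input differed by -0.27 (adjusted p = 0.0515 in limma). Over the 4 sets allowed, the difference between the RIPs was 0.57 to 1.18, that between PABPN RIP and input -0.27 to 1.60, and that between PABPC RIP and input -1.46 to 1.03.

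DDX58, at 32455302 to 32526208 of chromosome 9, had 468, 514 and 547 normalised reads in input, 585, 583 and 485 in PABPN RIP, and 276, 291 and 318 in PABPC RIP. PABPN RIP overlapped input, and PABPC RIP was below both. In limma it was lower in PABPC RIP than in input by -0.79 (SE 0.116, adjusted p = 6.47e-05), higher in PABPN RIP than in PABPC RIP by 0.90 (adjusted p = 2.1e-05), and differed by 0.11 (SE 0.116, adjusted p = 0.455) between PABPN RIP and input. This last value was -0.082 with libraries centred on their medians, a step that moved every change of PABPN RIP against input by -0.19, of PABPC RIP against input by -0.13 and of PABPN RIP against PABPC RIP by -0.067. It turned the 1701 genes called higher and 937 called lower in PABPN RIP than in input into 1148 and 1821.

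**Figure D3:**
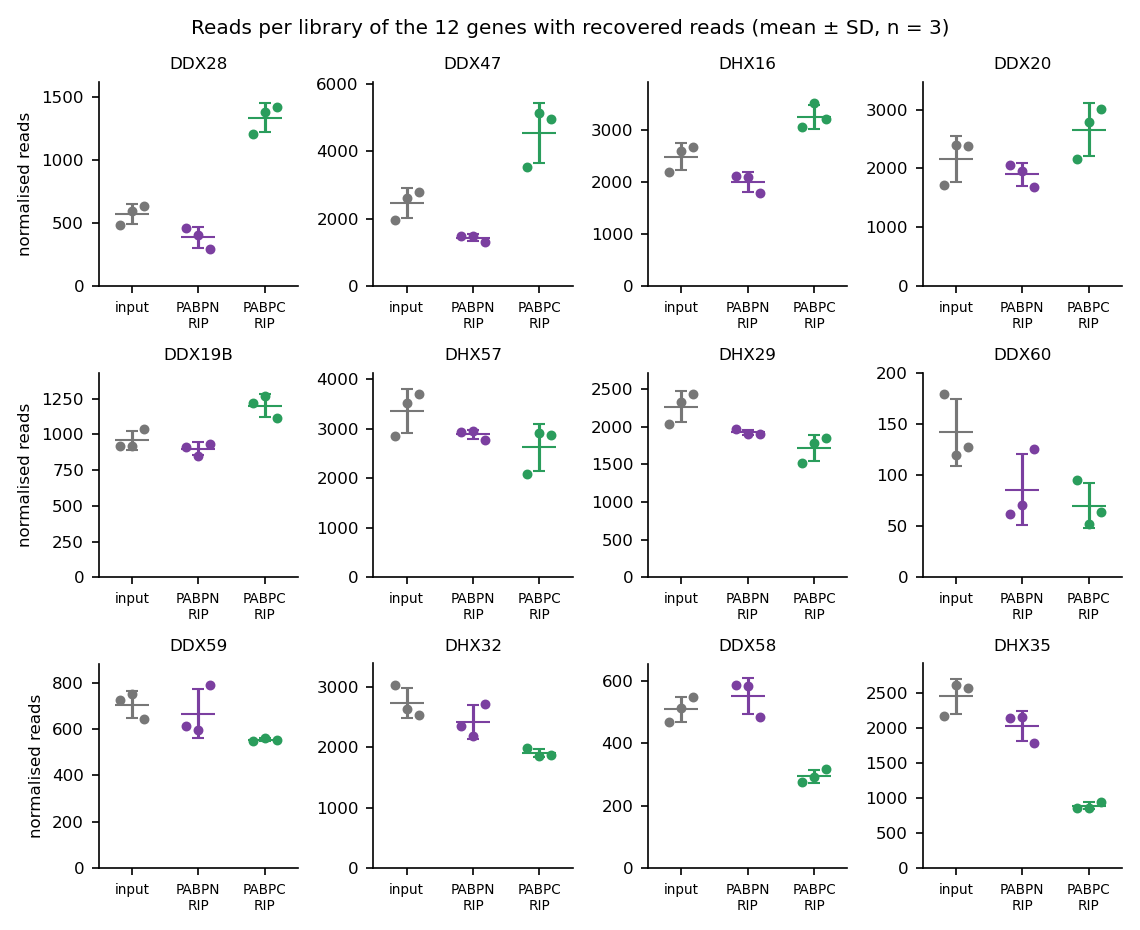
Normalised reads (y axis, linear from 0) of the 12 genes with recovered reads in each of the 9 libraries, with 3 points per group for input (grey), PABPN RIP (purple) and PABPC RIP (green), the bar at the mean and error bars of 1 SD (n = 3). DDX19B, DDX28, DDX47 and DHX16 are highest in PABPC RIP in all 3 libraries, and DDX58, DDX59, DHX29, DHX32 and DHX35 are lowest there in all 3.

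DHX32 and DDX60 were the other genes called lower in PABPC RIP than in input. DHX32, at 125836337 to 125896436 of chromosome 10, had 3021, 2636 and 2541 normalised reads in input, 2356, 2179 and 2717 in PABPN RIP, and 1987, 1849 and 1877 in PABPC RIP. Only PABPC RIP lay apart from input. Its change in PABPC RIP was close to the bound, -0.52 (SE 0.100, adjusted p = 0.000549) in limma, and moved inside it without input library 1 (-0.44), without PABPC RIP library 2 (-0.50) or without the 3 libraries that stood apart (-0.47). PABPN RIP exceeded PABPC RIP by 0.34 (adjusted p = 0.00844), which is within the bound. Over the 21 sets allowed, this difference was 0.15 to 0.68, that between PABPN RIP and input -1.48 to 2.11, and that between PABPC RIP and input -2.15 to 1.95.

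DDX60, an interferon-induced gene at 168216291 to 168318883 of chromosome 4, was at a much lower level, with 179, 119 and 127 normalised reads in input, 61.9, 70.7 and 125 in PABPN RIP, and 94.9, 51.8 and 64.2 in PABPC RIP. The highest value of each group came from a library that stood apart: input library 1, PABPN RIP library 3 and PABPC RIP library 1. In limma the change in PABPC RIP against input was -1.03 (SE 0.302, adjusted p = 0.00802), and the call was lost without any 1 of the input libraries (adjusted p of 0.0123 to 0.0327), without PABPN RIP library 2 (0.0108), without PABPC RIP library 2 (0.0371) or without PABPC RIP library 3 (0.0251). The change in PABPN RIP against input was -0.77 (SE 0.302, adjusted p = 0.0551) and was called without the 3 libraries (-0.89, adjusted p = 0.00063), with a term for them (-0.77, adjusted p = 0.000348), with the inferred block (-0.77, adjusted p = 0.000736) or without PABPN RIP library 3 (-1.07, adjusted p = 0.00965). The RIPs differed by 0.26 (adjusted p = 0.428), and by -0.041 (adjusted p = 0.895) without PABPN RIP library 3.

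The remaining 5 genes were called in none of the 3 comparisons. DDX19B had 919, 921 and 1035 normalised reads in input, 913, 847 and 935 in PABPN RIP, and 1216, 1271 and 1117 in PABPC RIP, with PABPC RIP above the other groups in every library. In limma it differed by 0.33 (adjusted p = 0.00599) between PABPC RIP and input and by -0.42 (adjusted p = 0.00119) between the RIPs, both within the bound. DDX20 had 1719, 2405 and 2380 in input, 2057, 1958 and 1679 in PABPN RIP, and 2153, 2794 and 3017 in PABPC RIP. The RIPs did not overlap for DDX20, and their difference of -0.47 (SE 0.157, adjusted p = 0.0151 in limma) was called without PABPC RIP library 1 (-0.62, adjusted p = 0.00258), without the 3 libraries that stood apart (-0.53, adjusted p = 1.66e-08) and with libraries centred (-0.54, adjusted p = 0.00788). Over the 14 sets allowed for DDX20 it was -0.92 to -0.28, with -2.0 to 2.5 for PABPN RIP and -1.09 to 2.81 for PABPC RIP against input.

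DHX29 had 2038, 2333 and 2430 normalised reads in input, 1968, 1908 and 1908 in PABPN RIP, and 1516, 1787 and 1848 in PABPC RIP. These groups did not overlap, and limma gave -0.40 (adjusted p = 0.00268) for PABPC RIP against input, which went past the bound with libraries centred (-0.53). The value used is the lowest of the 5 sets allowed, which gave -0.40 to 0.70, with -0.23 to 0.79 for PABPN RIP against input and 0.072 to 0.17 between the RIPs. DDX59, a gene of primary cilia, had 723, 751 and 641 in input, 615, 597 and 787 in PABPN RIP, and 548, 562 and 554 in PABPC RIP, a change of -0.34 (adjusted p = 0.0189) in limma for PABPC RIP against input. DHX57 had 2853, 3508 and 3687 in input, 2924, 2950 and 2769 in PABPN RIP, and 2074, 2908 and 2879 in PABPC RIP, with all groups overlapping. Its RIPs differed by 0.15 (adjusted p = 0.313 in limma), and by -0.0068 (adjusted p = 0.952) without PABPC RIP library 1. The 104 sets of reads that its digits allowed gave -0.021 to 0.72 for that difference, -3.00 to 3.87 for PABPN RIP against input and -3.72 to 3.74 for PABPC RIP against input, so no sign was fixed.

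**Figure D4:**
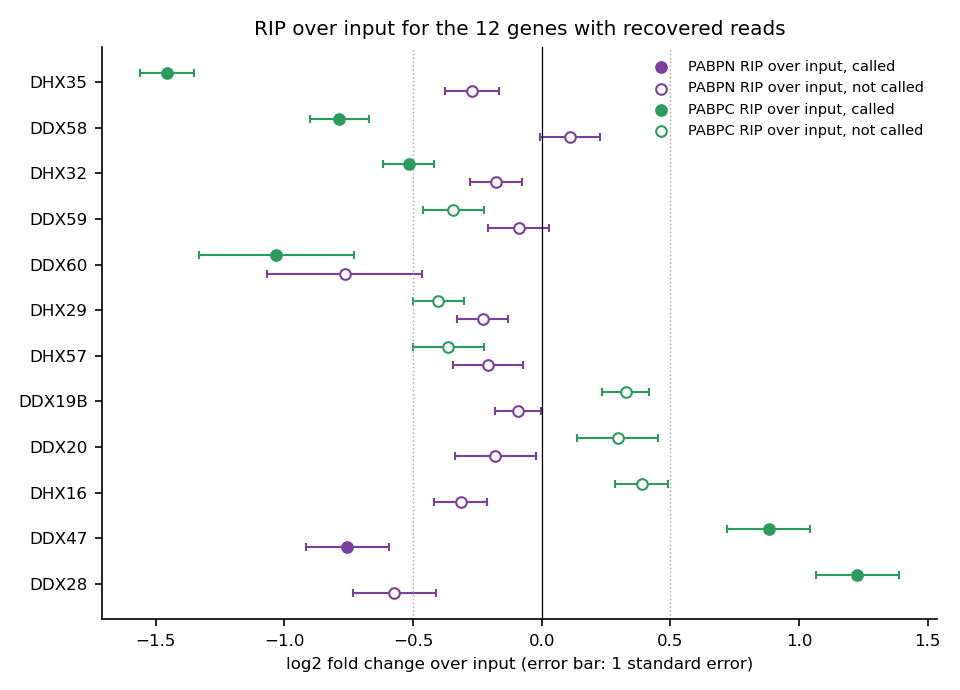
Log2 fold change over input (x axis) of the 12 genes with recovered reads, PABPN RIP in purple and PABPC RIP in green, with error bars of 1 SE and dotted lines at -0.5 and 0.5. Filled points are called by limma, which are 1 purple point (DDX47) and 6 green points. For DDX19B, DDX20, DDX28, DDX47, DDX58 and DHX16 the purple and the green point lie on opposite sides of 0 for the sets of reads used.

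Across all fitted genes the pooled ratio and these tests rest on the same reads, so their match is a description of the measure. Of 2283 fitted genes with a pooled ratio above 0.5, 99.4% were called higher in PABPN RIP than in PABPC RIP and 0 lower, and of 2412 below -0.5, 99.6% were called higher in PABPC RIP and 0 lower. All 5 helicase genes called between the RIPs had the sign of their pooled ratio, and 3 of them, DHX16, DHX35 and DDX58, had a pooled ratio inside the bounds.

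Levels between genes were compared per kb of deposited exonic length on the scale of the PABPN mean, with reads from introns included. The highest were DDX21 at 4657 normalised reads per kb, DDX17 at 3465 and DHX9 at 3226. The median was 754 per kb for DDX and 565 for DHX genes, beside 352 for protein coding genes. On the PABPC mean it was 892 for DDX and 598 for DHX genes. The lowest 3 of all 54 genes were DDX53 at 0.045 per kb, DDX3Y at 0.17 and DDX25 at 2.14. In such bulk libraries, few cells with a transcript, few transcripts per cell and a few reads misplaced from a similar gene cannot be told apart.

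The 7 genes under the minimum were the 4 germ cell genes, a Y-linked gene and 2 genes of the antiviral list. DDX53 was 1 read in all, in PABPN RIP library 3, and was listed at 0 for PABPC. DDX3Y had 2 reads in the 3 input libraries together, 4 in PABPN RIP and 6 in PABPC RIP. DDX4, the germ cell marker known as VASA, had 33, 29 and 6 reads, DDX43 had 12, 33 and 4, and DDX25 had 64, 79 and 51. DDX60L had 133 reads in input, 115 in PABPN RIP and 46 in PABPC RIP, and DHX58, which encodes the RIG-I relative LGP2, had 93, 94 and 48. These genes were outside the fit, and no fold change is given for them.

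Close pairs differed in level, in pooled ratio or in both. DDX5 and DDX17, which share 24 of the 30 bases printed above, lay close in level (2890 and 3465 per kb) and 0.28 apart in pooled ratio, DDX17 being higher. DDX39A and DDX39B share 23 of 30 bases and the motif DECD, but DDX39B had 2837 per kb beside 1087 for DDX39A, and their pooled ratios, -0.71 and 0.12, lay on opposite sides of 0 and 0.83 apart. DDX19A and DDX19B, neighbours on chromosome 16, have the same 30 bases around motif II, and their pooled ratios were -0.53 and -0.22. Reads that match both genes of this pair equally well may have been lost or split, so their values are uncertain. DDX3X stood at 1510 per kb and DDX3Y at 0.17, and DDX60 at 16.9 and DDX60L at 3.38. DHX9 and DHX36, both with the motif DEIH, differed 6.78-fold in level (3226 and 476 per kb) and by 0.057 in pooled ratio.

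Because intron reads were counted, the pooled ratio was set against the summed intron length of the canonical transcript. Across genes, which are not independent replicates and share the libraries, Spearman's rho was 0.35 over the 47 helicase genes, 0.33 over 32 DDX, 0.32 over 15 DHX and 0.60 over 12450 protein coding genes. In 10 groups of protein coding genes by intron length, the median pooled ratio went from -0.96 in the group with at most 3142 bases of intron to 0.58 in the group with 161261 bases or more. DDX10, with 272642 bases the helicase gene of longest introns, and DDX28, with none, lay within the middle 50% of their groups, as did 31 of the 47 genes in all (19 DDX and 12 DHX).

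Above the middle 50% of genes of like intron length were 7 helicase genes. DDX51 stood out with 3024 bases of intron and 0.56, where the group's median was -0.96. DDX5, with 4352 bases, and DDX39B, with 10097, had 0.11 and 0.12 where the medians were -0.69 and -0.50. DDX55 (16189 bases), DDX17 (18113 bases), DDX11 (27020 bases) and DHX35 (74064 bases) were the others. Below the middle 50% were 9 genes: DHX40, DDX47, DDX21, DDX54, DDX6, DDX23, DDX1, DHX8 and DDX60. The farthest was DHX40, with 39161 bases of intron and -0.90 where the median was -0.11. A copy named DHX40P1 had 2.44% of the reads of DHX40. Among the DHX genes, 1 lay above and 2 below, and among the DDX genes 6 and 7.

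**Figure D5:**
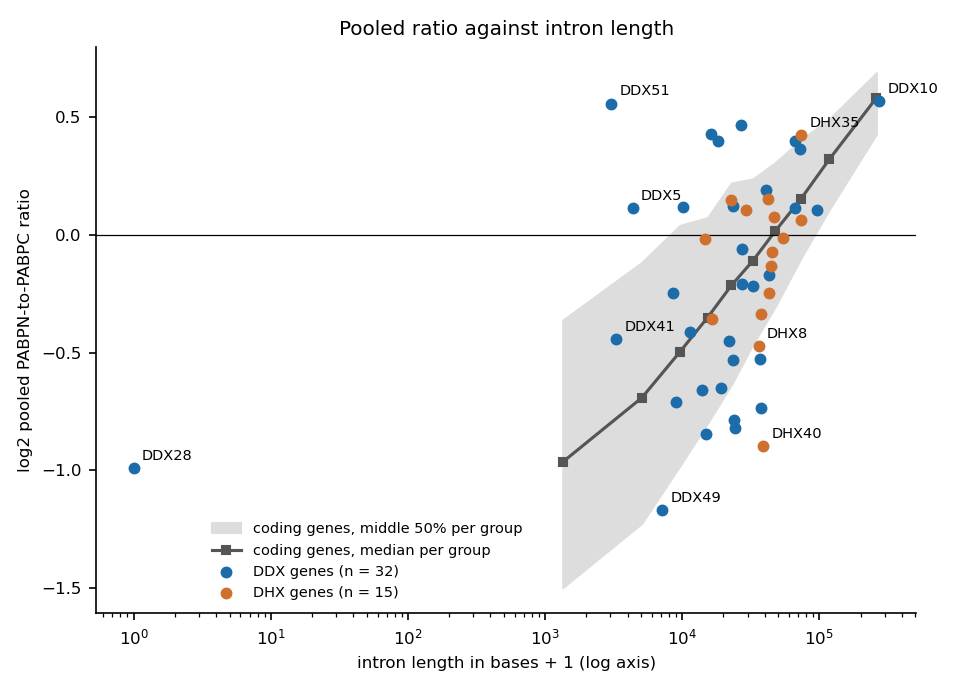
Pooled ratio (log2, y axis) against summed intron length of the canonical transcript in bases + 1 (log x axis) for 32 DDX (blue) and 15 DHX genes (orange), with the median (line) and middle 50% (grey) of protein coding genes in 10 groups by intron length. DDX51 lies far above the grey band at 3024 bases and DHX40 below it at 39161 bases, while DDX28 has no intron and DDX10 has 272642 bases.

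A wider list of helicases with other names covered a similar range. Of 11 such genes listed, 9 passed the minimum, with a median pooled ratio of -0.018. EIF4A1, the cap-dependent translation helicase (-1.16), and EIF4A3, the anchor of the exon junction complex (-1.07), were close to DDX49 and below all other DDX and DHX genes. ASCC3 (0.43) and YTHDC2 (0.40) were in the range of DDX55 to DDX17. AQR (0.17), MTREX (0.058), EIF4A2 (-0.018), SKIV2L (-0.091) and SNRNP200 (-0.20) lay between, and TDRD9 and DQX1 were under the minimum. Pseudogene copies named after DDX or DHX genes were listed 17 times, and only DDX12P and DHX40P1 passed the minimum.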

How the data were processed

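Total RNA libraries of input, PABPN RIP and PABPC RIP were grouped by sample title. According to their methods and the labels, the authors aligned reads to hg38 with STAR, counted exons and introns together with featureCounts 2.0.2 on GENCODE 34 with NCBI genes added, and compared each RIP with input in DESeq2. The signal column that the authors deposited is, per RIP, the mean over 6 libraries of reads divided by size factors. A further 5 columns per table hold the authors' own comparison (fold change, its error, statistic, p and adjusted p) and were not used. The other deposited column is gene length in bases.

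In both tables, the 6 commonest non-zero means gave the worth of 1 read in each library, and the 3 libraries whose single reads fell on the same genes in both tables were taken as input. Whole reads per library were sought from the 15 significant digits of both means, and accepted where at least 99% of the weight lay on 1 set. This gave 30626 genes, of which 9160 had means above 50 and were fitted, 7169 of them with 1 possible set. The search was rerun with decimals removed on genes whose full digits allowed 1 set, and that set was taken as right. It was returned for 1173 of 1174 accepted genes with 1 set, where the weight had no choice to make, and 321 of 326 with several. Genes of this check were also among those used to set the weight, so it was not made on held-out genes. These genes had lower means than the helicase genes with several sets. With 11 to 100 sets, 47 of 48 accepted genes were right. With 101 or more, 0 of 76 genes were accepted, so the choice for DHX57, with 104 sets, was not checked. limma 3.58.1 in R 4.3.3 fitted the 3 groups with a variance trend. The scripts were tested on simulated data. P-values measure the spread between these libraries, which carry no replicate numbers. For genes with several possible sets, that spread was itself used in choosing the set.

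Motifs, exons and introns came from canonical transcripts of GENCODE 44. Every helicase gene is named, with values for the 8 highest and lowest pooled ratios, the 3 highest and lowest levels, recovered genes and close pairs. Genes and role lists were chosen with earlier results of these data known. No marker list was used to check the cell line. Alternatives covered scaling, centring, cut-offs, minimum, pseudocount, variance trend, stricter recovery, each library left out, and, added after seeing the data, the 3 libraries that stood apart and a block inferred from the libraries' deviations. Precision is set by 3 libraries per group.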

Additional observations from a re-analysis of the deposited data

Results flagged for a closer look

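For 4 of the 12 helicase genes with recovered reads, the change over input had opposite signs in the 2 RIPs in the reads used, and the difference between the RIPs was called by limma. The share of all fitted genes that meet both conditions was not computed, so the count is not a trait of helicases. Between the RIPs, 37.5% of the 9160 fitted genes were called higher in PABPN RIP and 33.7% lower. PABPN RIP minus PABPC RIP was -1.80 for DDX28, -1.64 for DDX47 and -0.70 for DHX16, which were below input in PABPN RIP (called for DDX47 only) and above it in PABPC RIP (called for DDX28 and DDX47). It was 0.90 for DDX58, which was above input in PABPN RIP (not called) and below it in PABPC RIP. All 3 PABPN RIP libraries lay on the same side of all 3 PABPC RIP libraries for each of these 4 genes. That is largely given by the call between the same libraries, by which the genes were picked, and adds no separate evidence. The opposite signs are not fixed in 3 of them. For DDX47 the sets of reads that the digits allowed gave -3.42 to 2.81 for PABPN RIP and -0.026 to 3.70 for PABPC RIP over input, for DHX16 they gave -1.96 to 1.94 and -0.76 to 2.40, and for DDX58, which had a single set, PABPN RIP over input was -0.082 with libraries centred.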

How the results depend on the processing

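No paired analysis was possible because the libraries recovered from the deposited means carry no replicate numbers. The correlations of deviations matched the libraries in 3 sets (input 1, PABPN RIP 3 and PABPC RIP 1, then input 2, PABPN RIP 1 and PABPC RIP 3, then input 3, PABPN RIP 2 and PABPC RIP 2), where each library correlated best with its own set except PABPC RIP 3, which correlated at 0.3655 with PABPN RIP 2 and at 0.3385 with PABPN RIP 1. A block of these sets, inferred from the reads and not from the labels, and chosen after seeing the data, added the calls of DDX28 and DDX60 in PABPN RIP over input and moved no other call of the 12 genes. Of the single-gene comparisons by limma under all alternatives, 727 kept direction and call, 20 gained a call, 18 lost it and 3 changed sign: DDX58 in PABPN RIP over input with libraries centred (-0.082), DDX60 between the RIPs without PABPN RIP library 3 (range over libraries left out -0.041 to 0.50) and DHX57 between the RIPs without PABPC RIP library 1 (range -0.0068 to 0.24). The cause was not tested. Helicase genes lower in PABPN RIP than in input (1 as reported) were 3 with libraries centred, 3 without the 3 libraries that stood apart, 3 with a term for them, 3 with the inferred block, and 0 with a cut-off of 1 or stricter recovery, which keeps fewer genes. Those higher in PABPC RIP than in input were 4 with no cut-off, 1 with a cut-off of 1 and 1 with stricter recovery, and those lower were 2 with a cut-off of 1 and 2 with stricter recovery. Between the RIPs, 1 was higher in PABPN RIP with a cut-off of 1 or stricter recovery, and 1 higher in PABPC RIP with stricter recovery. Leaving out 1 library at a time gave 0 to 2 lower and 0 higher in PABPN RIP than in input, 2 to 4 lower and 2 higher in PABPC RIP than in input, and 2 higher in PABPN RIP and 3 to 4 in PABPC RIP between the RIPs. Over all fitted genes it gave 708 to 1047 lower and 1405 to 1784 higher in PABPN RIP than in input, 2701 to 2834 lower and 3469 to 3649 higher in PABPC RIP than in input, and 3283 to 3470 higher in PABPN RIP and 2977 to 3115 in PABPC RIP between the RIPs.

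Genes called in PABPN RIP over input were 646 higher and 218 lower with a cut-off of 1, and 1821 lower with libraries centred. Genes higher in PABPC RIP than in input were 2374 with a cut-off of 1, and genes lower were 4342 with a minimum of 10, 1711 with a minimum of 200 and 5806 with none. Genes higher in PABPN RIP than in PABPC RIP were 5300, 2070 and 6597 with those minimums. The median pooled ratio of the helicase genes was -0.17 when centred on all genes, and 0.094 when each table kept its own scale, without the log2 factor of -0.226 between the tables, which turns the sign of 8 genes between -0.22 and -0.016. Helicase genes above the cut-off were 8 at 0.25, 0 at 1 and 4 with no minimum, and 1 lay below -1. Levels per kb by deposited length and by the exon union ranked the genes with a rho of 0.948. Depth limits the low genes, since 1 library holds at most 2 reads of DDX3Y and 1 of DDX53.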
